A study of Mus musculus with 9 samples.

Results

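The subunits of the respiratory chain and of ATP synthase were taken from bead array data on mouse liver by their gene symbols. All probes were used whose symbol begins with Ndufa, Ndufb, Ndufc, Ndufs, Ndufv, Sdha, Sdhb, Sdhc, Sdhd, Uqcr, Cox4, Cox5, Cox6, Cox7, Cox8 or Atp5, together with Cycs. This rule took 122 of the 45281 probes, which carry 82 gene symbols. Of these genes, 76 passed the detection filter and were tested among 13532 genes in all. Tested were 33 of 34 genes of complex I, 4 of 4 of complex II, 7 of 7 of complex III, 11 of 16 of complex IV and 14 of 14 of complex V (ATP synthase). These totals count the genes taken by the rule, which does not cover every subunit. Cytochrome c and 6 genes that the prefixes caught but that do not encode subunits made up the rest of the 76. Those 6 are Ndufaf1 and Ndufaf2 (assembly factors of complex I), Cox7a2l (a protein that joins complexes III and IV into supercomplexes), Emc8 (part of an insertion machinery of the endoplasmic reticulum), Dmac2 (a further assembly factor of complex I) and Dmac2l.

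The samples were 3 kinds of mouse liver tissue with 3 arrays each, all captured or scraped from fixed tissue on a glass slide and hybridised as Cy3-labelled material in a single colour. PV was the glutamine synthetase subcompartment, a thin sheath of liver cells at the central vein. For NPV the label names zones 1+2 of the acinus, which reach towards the portal tract, and SC was a scrape of the whole section. PV and NPV were collected by laser capture microdissection, in which chosen cells are cut out of a section under the microscope. No treatment or genetic change is named in the labels. The way in which PV cells were recognised is not given in the sources read for this text, nor are the strain, age, sex and number of mice. The arrays of each kind are numbered 1, 2 and 3, and arrays of one number may or may not come from the same animal. A p-value here therefore speaks only of the scatter among these 9 samples, part of which may be technical.

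The respiratory chain lies in the inner mitochondrial membrane. Complexes I and II pass electrons to ubiquinone, complex III passes them on to cytochrome c, and complex IV passes them to oxygen, while complexes I, III and IV pump the protons that drive ATP synthase. In liver, blood flows from the portal tract to the central vein and loses oxygen on the way, and textbooks describe periportal hepatocytes as the more oxidative cells of the lobule. Most subunits are encoded in the nucleus, as are all 82 genes here, and a few are encoded in mitochondrial DNA.

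Levels are log2 intensities after background correction and quantile normalization, so a difference of 1 is a doubling. A level belongs to its probe and is not compared with that of another probe. Between 16819 and 18721 probes were detected per array, with lowest detected levels of 5.05 to 5.27, and 103 to 108 of the probes taken by the rule. Glul, which encodes glutamine synthetase and served as the check of the labels, stood at 13.73, 12.81 and 12.88 in PV, 11.09, 10.94 and 10.48 in NPV, and 11.58, 11.70 and 11.44 in SC. Each PV array was therefore above all NPV and SC arrays, in the direction of the labels (PV minus NPV 2.31, SE 0.27, limma adjusted p = 0.0639, and 0.0022 with the label number as a block). The arrays numbered 3 stood apart from the other 6 in every group: over all genes they correlated with one another at 0.991 to 0.994 and with arrays 1 and 2 at 0.944 to 0.959. The number of arrays limits the precision of every value below.

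No subunit of the chain passed the test between the perivenous layer and zones 1+2. At an adjusted p under 0.05, limma called 0 of the 76 members, against 3 of 13532 genes (0.0222%), and with the label number as a block 0 members against 43 genes (0.318%). At an unadjusted p under 0.05 the count was 1 member, Cox7a1 (1.32% of the members), against 304 genes (2.25%). With the block it was again 1 member, against 1269 genes (9.38%). The share of members past the unadjusted threshold was below that of all genes in both fits, and no test was made of that difference.

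The members differed little in size between PV and NPV. The 95% interval of the difference lay within 2-fold either way for 72 of the 76 members (94.7%), against 78.4% of all genes, and within 1.5-fold for 53 (69.7%), against 34.4%. With the block, 69 of 76 intervals lay within 1.5-fold (90.8%, against 72.1%). The 4 members with wider intervals than 2-fold were Cox7a2l, Cox6b2, Ndufb10 and Atp5e, and all 4 had a wide gap between the arrays numbered 3 and the others, described further on. The members' mean levels had a median of 12.60. The part of brightness in these shares was not tested.

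The direction of the small differences was uneven. The PV mean was below the NPV mean for 60 of the 76 members (78.9%), against 49.6% of all genes, and the median difference was -0.075 for the members and 0.0014 for all genes. The medians of the members were -0.082, -0.082 and -0.068 in the pairs of arrays numbered 1, 2 and 3. In all 3 pairs 23 members were lower in PV (30.3%, against 17.3% of all genes), and 4 were higher (5.26%, against 16.2%). The sign depends on the scaling. An alternative scaled each array to a common median in place of quantile normalization. That median was taken over all 45281 probes, of which 37.1 to 41.3% were detected per array, so it lay among undetected probes. With this scaling the median of all genes moved to 0.30 and that of the members to 0.21. Only 3 of 76 members were then below 0. Relative to all genes the members' median was -0.081, with 62 of 76 below the median gene. Without the 3 arrays numbered 3 the count below 0 was 51 of 76, and without PV array 3 alone it was 44. In captured tissue of this kind, fewer cells of a type and less RNA per cell cannot be told apart. Markers of other cells moved in the same comparison, in differing directions. The summed level of 7 detected of 8 markers of central vein endothelium (Wnt9b was below the detection filter) ranged from 9.12 to 11.32 in PV, 8.19 to 10.17 in NPV and 9.02 to 10.52 in SC, and was higher in PV than in NPV in all 3 pairs. That of 12 of 12 markers of stellate cells and fibroblasts ranged from 13.95 to 14.57 in PV, 13.92 to 14.00 in NPV and 14.04 to 14.14 in SC, and was higher in PV in the pairs numbered 1 and 2. Summed markers of Kupffer cells and macrophages were lower in PV than in NPV in the pairs numbered 1 and 2. Those of cholangiocytes and of red blood cells were lower in PV in the pairs numbered 1 and 3. Markers of sinusoidal and general endothelium were lower in PV in the pair numbered 2 only. The part of these cells in the members' values was not tested.

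**Figure D1:**
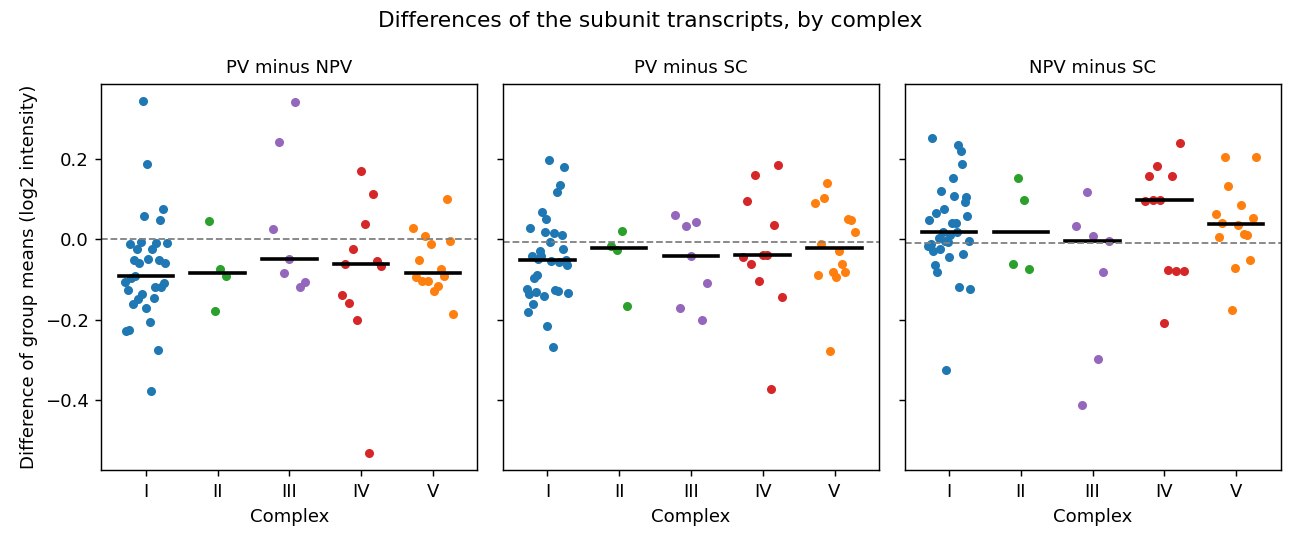
Each point is one subunit gene, placed by the difference of its group means on the log2 intensity scale (y axis) and by complex (x axis), for PV minus NPV, PV minus SC and NPV minus SC; bars are the medians of a complex and the dashed line is the median of all genes tested. In the left panel the 5 complex medians lie between -0.092 and -0.050 on the quantile-normalised scale, below the line at 0.0014; under median scaling the line itself lies at 0.30.

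Complex I, which takes electrons from NADH, held more of the members than any other complex, and the PV mean was below the NPV mean for 28 of the 33 tested. The median difference was -0.092, with single subunits from -0.38 (Ndufb7) to 0.34 (Ndufb11). Ndufa10, an accessory subunit, read 12.86, 13.17 and 13.07 in PV, 13.28, 13.31 and 13.19 in NPV, and 13.27, 13.32 and 13.05 in SC. Its PV and NPV arrays did not overlap, and the difference was -0.23 (SE 0.15, limma adjusted p = 0.9999, and 0.617 with the block), a fold of 1.17. Under median scaling this difference was 0.052, against a median of 0.30 for all genes. Ndufb6 (12.57, 12.42 and 12.54 in PV, 12.68, 12.58 and 12.89 in NPV) and Ndufa3 (12.98, 12.85 and 12.87, against 13.00, 13.10 and 13.09) were the other accessory subunits whose PV arrays all lay below the NPV arrays.

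Ndufb7, an accessory subunit on the intermembrane side, had the widest gap of complex I at -0.38, but its arrays overlapped. It read 8.23, 8.71 and 8.95 in PV against 8.98, 8.87 and 9.17 in NPV, and 8.95, 8.43 and 9.32 in SC (SE 0.27, limma adjusted p = 0.9999). PV array 1 was the lowest of the 9.

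Other core subunits of complex I showed smaller gaps between PV and NPV. Ndufv1, the flavoprotein that binds NADH, differed by -0.060, Ndufs3 by -0.052, Ndufs8 by -0.11 and Ndufs7 by 0.075. Ndufs7, which carries an iron-sulfur cluster, had the smallest p of complex I between PV and SC. It read 13.23, 13.20 and 13.12 in PV, and 12.97, 12.88 and 13.17 in SC (difference 0.18, SE 0.14, limma adjusted p = 0.9999). Of the core subunit Ndufs1 the probe was not detected on any of the 9 arrays, and it was not tested.

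Ndufb11, an accessory subunit of the membrane arm, was the one member whose PV arrays all lay above the NPV arrays. It read 5.66, 5.94 and 5.80 in PV, 5.43, 5.46 and 5.48 in NPV, and 6.13, 5.30 and 5.91 in SC. The difference from NPV was 0.34 (SE 0.21, limma adjusted p = 0.9999, and 0.642 with the block). These levels lie near the lowest detected ones, and the SC arrays spanned a wider range than both other groups.

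**Figure D2:**
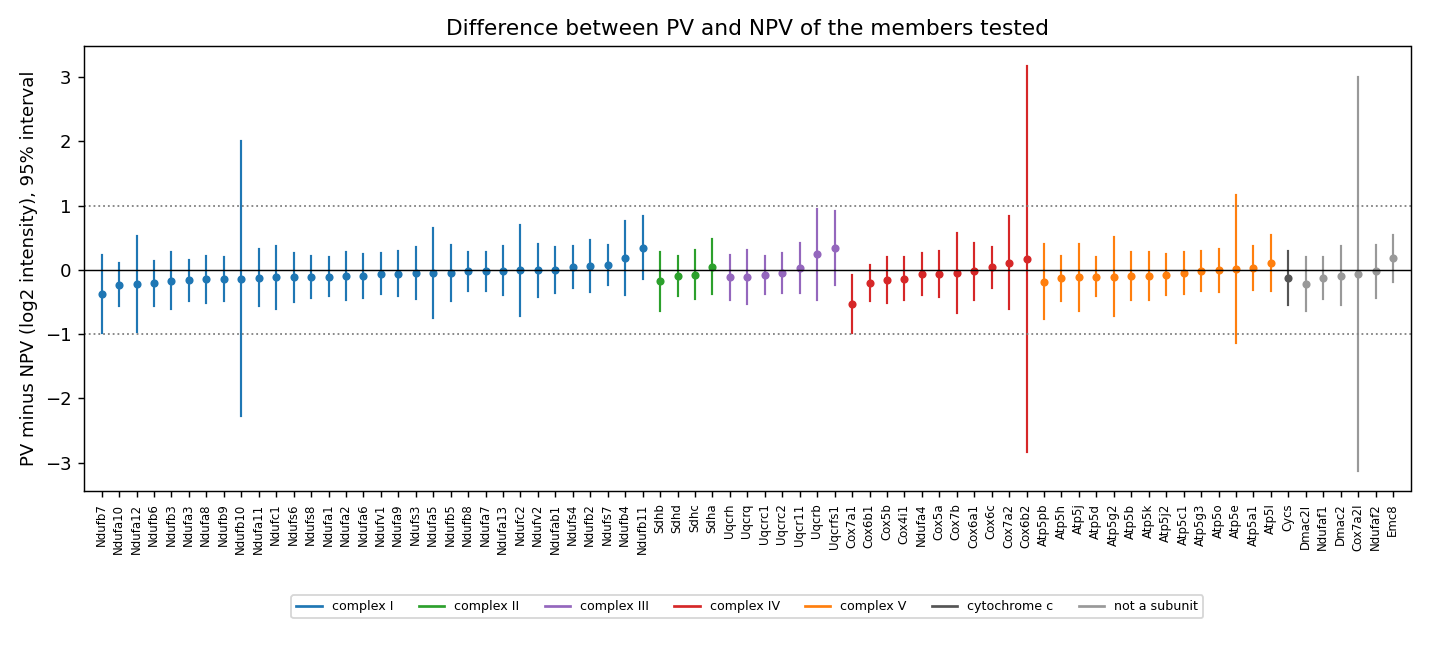
The difference between PV and NPV of the members tested, with 1 not shown (points, log2 intensity) with the 95% interval from limma (lines), grouped and coloured by complex; dotted lines mark 2-fold either way. Of all 76 intervals, 72 lie within 2-fold; the interval of Cox7a1, from -0.98 to -0.086, is the only one that does not reach 0, and under median scaling that difference was -0.19.

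Complex II, succinate dehydrogenase, links the chain to the citric acid cycle. Sdhb, its iron-sulfur subunit, read 12.05, 12.09 and 12.39 in PV, 12.26, 12.22 and 12.58 in NPV, and 12.11, 11.96 and 12.54 in SC. In each of the 3 numbered pairs the PV array was below the NPV array, with differences of -0.21, -0.13 and -0.19, while the groups overlapped because both arrays numbered 3 were higher (difference -0.18, SE 0.20, limma adjusted p = 0.9999, and 0.673 with the block). Sdhd, a membrane anchor, read 11.69, 11.78 and 11.64 in PV, 11.82, 11.91 and 11.65 in NPV, and 11.85, 11.96 and 11.80 in SC.

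Sdhd was the only member whose PV and SC arrays did not overlap with PV lower (1.32% of the members, against 1.96% of all genes). The difference was -0.17 (SE 0.14, limma adjusted p = 0.9999), and PV was below SC in all 3 pairs, with differences of -0.16, -0.18 and -0.16; under median scaling it was 0.013, against 0.15 for the median of all genes. Sdhc, the other anchor, differed by -0.075 between PV and NPV and by 0.022 between PV and SC. The probe of Sdha, the flavoprotein that oxidises succinate, was dim (5.01 to 5.68 on the 9 arrays, detected on 8), with a difference of 0.046 (SE 0.19) between PV and NPV.

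Complex III, which oxidises ubiquinol, had a median difference of -0.050 between PV and NPV over its 7 members. Uqcrc1 and Uqcrc2, the core proteins, were steady, with 12.67 to 12.93 and 12.95 to 13.24 over the 9 arrays and differences of -0.085 and -0.050. Uqcrh, the hinge protein that contacts cytochrome c1, read 13.16, 13.40 and 13.35 in PV, 13.41, 13.33 and 13.52 in NPV, and 13.54, 13.29 and 13.69 in SC. Its difference was -0.12 (SE 0.16) from NPV and -0.20 (SE 0.16) from SC, with overlap in both.

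Uqcrb, the ubiquinone-binding subunit, was the most variable of complex III. It read 7.70, 7.91 and 8.53 in PV, 7.81, 7.42 and 8.18 in NPV, and 8.51, 7.71 and 8.43 in SC, and NPV was below SC in all 3 pairs (difference -0.41, SE 0.31, limma adjusted p = 1, and 0.777 with the block, the smallest of any member in that comparison). The groups overlapped. The probe of Uqcrfs1, the Rieske iron-sulfur protein, was detected on 2 PV arrays, on 0 NPV arrays and on 1 SC array, so no fold is given for it. That of Uqcrq was detected on 1 array of each group, and its differences have no settled sign.

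Complex IV, cytochrome c oxidase, contained the member with the widest gap of all. Cox7a1, the form of subunit 7a that predominates in heart and skeletal muscle, read 7.17, 7.07 and 6.75 in PV, 7.56, 7.34 and 7.69 in NPV, and 7.51, 7.54 and 7.06 in SC. All 3 PV arrays were below all 3 NPV arrays, and the SC arrays spread over both. The difference was -0.53 (SE 0.20, 95% interval -0.98 to -0.086), a fold of 1.44, with a limma unadjusted p of 0.0247 and adjusted p of 0.9999; with the block the adjusted p was 0.339. The 3 pairs differed by -0.39, -0.27 and -0.94, so the pair numbered 3 carried the widest gap, and without the arrays numbered 3 the difference was -0.33. Under median scaling it was -0.19. PV was also below SC in all 3 pairs, with differences of -0.34, -0.47 and -0.31 (difference -0.37, SE 0.20, limma adjusted p = 0.9999).

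Because Cox7a1 is a muscle form, muscle markers were set beside it. Of 14 markers of smooth and striated muscle, 5 passed the detection filter, all of them also expressed outside striated muscle. The summed level of the list ranged from 8.83 to 13.84 in PV, from 8.76 to 12.02 in NPV and from 8.94 to 10.72 in SC. Of the striated muscle markers, Actc1, Myh1 and Tnni3 were not detected on any array, and Acta1, Ckm and Tnnt3 were detected only on PV array 2. Of the 2 probes of Myh6, the other striated muscle marker listed, 1 was detected on 1 array, which was not PV array 2, and its levels over the 9 arrays were 4.66 to 5.28. Cox7a1 on PV array 2, 7.07, lay between PV arrays 1 and 3, and without PV array 2 the difference between PV and NPV was -0.57. The part of muscle tissue in the values of Cox7a1 was not tested.

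**Figure D3:**
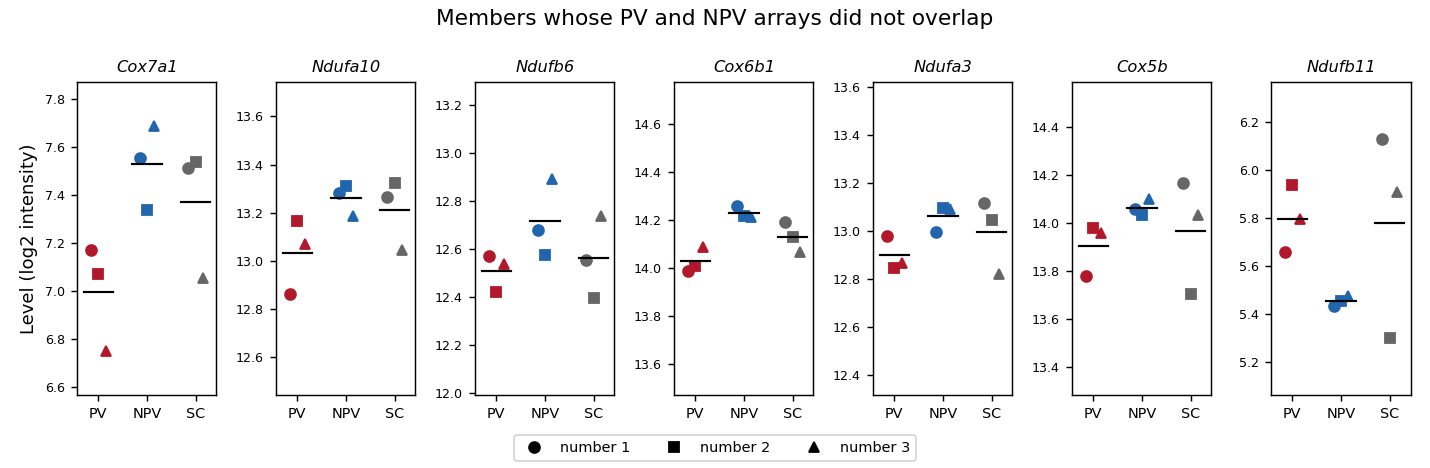
Levels (log2 intensity, y axis, each panel spanning the same height) on every array of the 7 members whose PV and NPV arrays did not overlap; symbols give the label number and bars the group means. In 6 panels the PV points lie below the NPV points and for Ndufb11 above them, on the quantile-normalised scale; under median scaling the differences of Ndufa10 and Cox6b1 were 0.052 and 0.0445.

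In all, 6 members had PV arrays entirely below the NPV arrays (7.89%, against 2.93% of all genes) and 1 had them entirely above (1.32%, against 2.93%). Beside Cox7a1 and the 3 of complex I, the 6 include 2 further subunits of complex IV. Cox6b1, a subunit on the side that meets cytochrome c, read 13.99, 14.01 and 14.09 in PV, 14.26, 14.21 and 14.21 in NPV, and 14.19, 14.13 and 14.07 in SC. Its PV and NPV arrays did not overlap, while the SC arrays overlapped with those of PV, and the difference between PV and NPV was -0.20 (SE 0.12, limma adjusted p = 0.9999, and 0.621 with the block), a fold of 1.15. Cox5b, which binds zinc, read 13.78, 13.98 and 13.96 in PV against 14.06, 14.03 and 14.10 in NPV, a difference of -0.16 (SE 0.16).

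For subunit 4 and the other tested members of complex IV, the PV and NPV arrays overlapped. Cox4i1, the common form of subunit 4, read 14.27, 14.24 and 14.29 in PV, 14.47, 14.48 and 14.27 in NPV, and 14.45, 14.11 and 14.37 in SC, a difference of -0.14 (SE 0.15) between PV and NPV. Ndufa4, a protein first counted to complex I and now placed in complex IV, read 14.27, 14.31 and 13.97 in PV and 14.39, 14.25 and 14.35 in SC, a difference of -0.14 (SE 0.15). Cox6c differed by 0.038 between PV and NPV, and Cox7b by -0.054.

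Complex V, ATP synthase, had a median difference of -0.084 between PV and NPV, and 11 of its 14 members had the lower mean in PV. Atp5b, the catalytic beta subunit, read 15.31, 15.45 and 15.28 in PV, 15.42, 15.56 and 15.34 in NPV, and 15.30, 15.71 and 15.30 in SC. Its difference from NPV was -0.094 (SE 0.16), with PV the lower in all 3 pairs while the groups overlapped. Atp5a1, the alpha subunit, differed by 0.029 (SE 0.15). Atp5h, subunit d of the stalk, had the smallest p of complex V with 12.71, 13.04 and 12.99 in PV and 12.91, 13.15 and 13.05 in NPV. Its difference was -0.13 (SE 0.15, limma adjusted p = 0.9999), with PV the lower in all 3 pairs. Cycs, which encodes cytochrome c, read 12.01, 12.08 and 11.95 in PV, 12.13, 12.31 and 11.98 in NPV, and 12.12, 12.42 and 11.82 in SC, again lower in PV in all 3 pairs while the groups overlapped (difference -0.13, SE 0.18).

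No member passed the test between the scrape of whole tissue and either captured region. Between PV and SC limma called 0 of 76 members, against 0 of 13532 genes (0%), and with the block 0 members against 11 genes (0.0813%). At an unadjusted p under 0.05 there were 0 members against 158 genes (1.17%), and with the block 0 against 840 (6.21%). The PV mean was below the SC mean for 51 of 76 members (67.1%, against 51.7% of all genes), with a median of -0.043 against -0.0075. The medians of the 3 pairs were -0.062, 0.034 and -0.11, so pair 2 ran the other way. The direction also turned with the scaling: under median scaling 10 of 76 members were below 0 with a median of 0.089, against 0.15 for all genes. No member had its PV arrays entirely above the SC arrays, against 1.74% of all genes. The 95% interval lay within 2-fold for 72 of 76 members (against 79.7% of all genes) and within 1.5-fold for 56 (against 36.1%), or for 70 with the block (against 75.4%).

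Between NPV and SC limma called 0 members with and without the block, against 0 of 13532 genes in both (0%). At an unadjusted p under 0.05 there were 0 members against 211 genes (1.56%), and with the block 0 against 896 (6.62%). The median difference of the members was 0.018, against -0.0083 for all genes, and 31 of 76 were below 0 (40.8%, against 52.3%). The medians of the 3 pairs were 0.019, 0.053 and -0.047, so pair 3 ran the other way. Under median scaling 65 of 76 were below 0 with a median of -0.10, against -0.14 for all genes. In this comparison 4 members had NPV arrays entirely above the SC arrays (5.26%, against 1.89% of all genes) and 0 entirely below (against 2.32%). These were Atp5d, the delta subunit of ATP synthase (0.21, SE 0.13), Cox5a of complex IV (0.16, SE 0.16), Uqcrc1 (0.12, SE 0.13) and Cox6b1 (0.097, SE 0.12). Atp5d read 12.86, 12.78 and 12.95 in NPV, 12.76, 12.62 and 12.59 in SC, and 12.82, 12.73 and 12.71 in PV, and its limma adjusted p was 1. The 95% interval lay within 2-fold for 71 members (against 79.2% of all genes) and within 1.5-fold for 52 (against 35.4%), or for 67 with the block (against 74.4%). Each array enters 2 of the 3 comparisons, so they are not independent.

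By complex, the medians between PV and NPV were -0.092 for complex I, -0.083 for II, -0.050 for III, -0.061 for IV and -0.084 for V. With 1 array left out at a time they ran from -0.1046 to -0.022 for I, from -0.1064 to -0.0489 for II, from -0.0816 to -0.001 for III, from -0.1257 to 0.0085 for IV and from -0.0927 to -0.0485 for V. The values nearest to 0 or above it came without PV array 3 for complexes I, IV and V and without PV array 1 for II and III. Between PV and SC the medians were -0.051, -0.022, -0.042, -0.040 and -0.021 in the same order, and only that of complex I kept its sign with each array left out (-0.0813 to -0.0177). That of complex II then ran from -0.1198 to 0.077 and turned without PV array 1 or SC array 3. Those of III (-0.0821 to 0.026) and IV (-0.1023 to 0.0251) turned without SC array 1, and that of V (-0.065 to 0.0179) without PV array 3. Between NPV and SC the medians were 0.018, 0.017, -0.0033, 0.097 and 0.038, and only that of complex III (-0.0788 to -0.0033) kept its sign. The median of complex III was the value of Uqcrq, detected on 1 array of each group, whose sign so close to background has no meaning. That of I (-0.0031 to 0.0689) turned without NPV array 2 or SC array 3, those of II (-0.0366 to 0.0918) and IV (-0.0027 to 0.1437) without SC array 2, and that of V (-0.0048 to 0.0541) without NPV array 2. The medians of the complexes are therefore a description of these arrays. The test of the differences between complexes was not run, since the subunits of a complex are not replicates of a condition.

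Several subunits exist as tissue forms, and the array carried probes for most sets. Of subunit 6a, Cox6a1, the form of liver and most tissues, was detected on all arrays (13.28 to 13.96), and Cox6a2, the heart and skeletal muscle form, was detected on PV array 2 alone. Of subunit 8, Cox8b, another muscle form, was likewise detected on PV array 2 alone, and Cox8c, known from testis, on 0 arrays. Cox4i2, the lung form of subunit 4, and Cox7b2, known from testis, were also detected on 0 arrays. Among the genes for the c-ring of ATP synthase, Atp5g3 differed by -0.011 (SE 0.14) and Atp5g2 by -0.10 (SE 0.27) between PV and NPV, and the arrays of the groups overlapped for both.

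The largest differences within the chain ran between the label numbers and not between the regions. Cox7a2l read 11.84, 11.98 and 8.80 in PV, 12.03, 12.17 and 8.61 in NPV, and 12.17, 12.22 and 8.62 in SC. All 3 arrays numbered 3 were thus below the other 6, with a difference of means of -3.39 and a fold of 10.5, while PV and NPV differed by -0.061. A further Cox7a2l probe read 9.88 to 10.55 over all 9 arrays, with a difference of 0.20 between number 3 and the others, so the 2 probes of this gene disagree.

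Ndufb10, an accessory subunit of complex I, showed the same disagreement. Its brighter probe read 12.55 to 13.00 on the arrays numbered 1 and 2 and 10.30, 10.44 and 10.43 on those numbered 3, a fold of 5.08. Its other probe read 10.93 to 11.26 on the former and 11.71, 11.74 and 11.97 on the latter, a difference of 0.68 the other way. Between PV and NPV both probes gave nearly the same value, -0.14 and -0.12.

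Cox6b2, known as the testis form of subunit 6b, moved opposite to Cox7a2l. It read 8.09, 8.16 and 8.11 on the PV, NPV and SC arrays numbered 3 and 4.60 to 5.12 on the other 6, of which only PV array 1 counted as detected. A further Cox6b2 probe was not detected on any array. Atp5e, the epsilon subunit of ATP synthase, read 10.77, 10.64 and 10.57 on number 3 and at least 11.75 on the others, and Cox7a2, the liver form of subunit 7a, 10.24, 10.18 and 10.15 against 10.77 to 11.05. Ndufa12 of complex I was higher on number 3, with 11.58, 11.75 and 11.71 against 10.56 to 11.18.

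**Figure D4:**
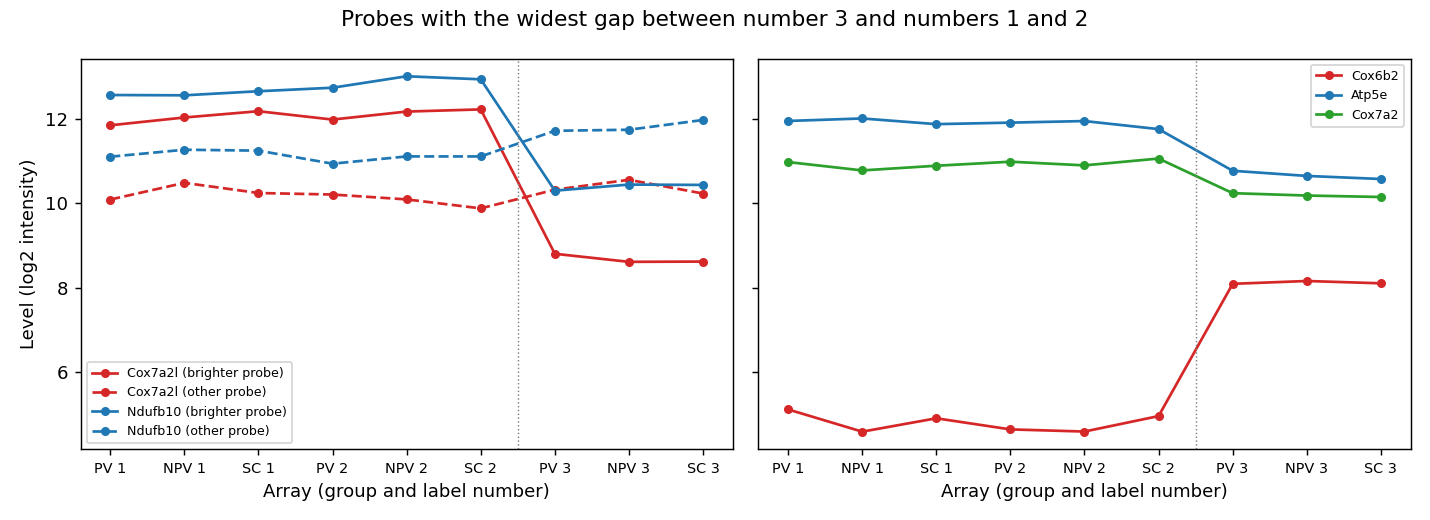
Levels (log2 intensity, y axis) on the 9 arrays, ordered by label number, of the probes of Cox7a2l and Ndufb10 (left, solid lines for the brighter and dashed for the other probe) and of Cox6b2, Atp5e and Cox7a2 (right). To the right of the dotted line, on the arrays numbered 3, the brighter Cox7a2l probe stands at 8.61 to 8.80 and Cox6b2 at 8.09 to 8.16 in all 3 groups, while the other Cox7a2l probe stays between 9.88 and 10.55 on all 9 arrays.

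These few genes were not typical of the chain. The means of number 3 and of the other arrays differed by over 1 for 4 of 76 members (5.26%), against 10.8% of all genes. Number 3 lay above all 6 other arrays for 6 members (7.89%, against 19% of all genes) and below them for 12 (15.8%, against 18%). With means also over 1 apart, it lay above them for 1 member (1.32%, against 4.64%), Cox6b2, and below them for 3 (3.95%, against 5.68%), Cox7a2l, Ndufb10 and Atp5e. The label number accounted for a median of 48% of the variation of a member over the 9 arrays and for 60.8% of that of any gene, and the group for 12.4% and 10.2%. The range of a member over the 9 arrays had a median of 0.50, against 0.84 for all genes. What the label number stands for was not tested, and labels give only the number itself.

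Of the 24 members with more than 1 probe past the filter, 19 had probes that agreed in sign between PV and NPV. The 5 others were Atp5l, Atp5pb, Ndufa6, Ndufc2 and Ndufs4. Atp5pb, subunit b of the stalk, had 4 probes with differences from -0.57 to 0.047, the lowest from a dim probe (5.27 to 6.34). The probes of Ndufa6 gave -0.092 and 0.16, the latter from a dim probe (5.12 to 5.90). Those of Atp5l gave 0.10 and -0.11, those of Ndufc2 -0.0091 and 0.075, and the 4 of Ndufs4 -0.0445 to 0.10. For Cox6b1, Ndufb6, Ndufa3 and Cox5b, named above for groups that did not overlap, the further probe gave -0.25, -0.13, -0.21 and -0.21. On these further probes the PV and NPV arrays stayed apart for Cox6b1 only. They overlapped for Ndufb6, Ndufa3 and Cox5b.

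The promoters of 67 of the 82 genes were matched by symbol in RefSeq (mouse build GRCm38.p6, from 250 bases before to 50 after the start) and searched on both strands for motifs known from nuclear genes of the chain. The site of NRF1, GCGCANGCGC, was found in 16 of the 67 (23.9%, against 5.19% of 27025 genes). The site of ETS factors such as GABP, CCGGAAG, was found in 16 (23.9%, against 9.93%), and the site of YY1, AAGATGG, in 11 (16.4%, against 7.28%). The GC box GGGCGG was found in 31 (46.3%, against 38.2%) and TATAAA in 7 (10.4%, against 15.7%). None of these 5 motifs contains another. A match is a string of letters and not shown to be bound in these samples. Ndufa10, named above for groups that did not overlap, had no NRF1, ETS or YY1 match, while Ndufb6 had an ETS and Ndufa3 a YY1 match. A link between these sites and the differences was not tested. The 4 sequences that follow were chosen to set Cox7a1, the member with the widest gap between PV and NPV, beside subunits whose promoters hold these sites. Matches to NRF1, ETS and YY1 letters are in capitals.
Cox7a1 (plus strand, chr7:30183921-30184220, no match): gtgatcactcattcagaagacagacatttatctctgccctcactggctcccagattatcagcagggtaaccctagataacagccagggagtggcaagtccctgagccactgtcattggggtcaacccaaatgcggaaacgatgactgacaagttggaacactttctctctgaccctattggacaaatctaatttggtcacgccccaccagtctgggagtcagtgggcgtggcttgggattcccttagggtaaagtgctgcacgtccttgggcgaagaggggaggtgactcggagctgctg
Cox6b1 (minus strand, chr7:30626065-30626364, ETS): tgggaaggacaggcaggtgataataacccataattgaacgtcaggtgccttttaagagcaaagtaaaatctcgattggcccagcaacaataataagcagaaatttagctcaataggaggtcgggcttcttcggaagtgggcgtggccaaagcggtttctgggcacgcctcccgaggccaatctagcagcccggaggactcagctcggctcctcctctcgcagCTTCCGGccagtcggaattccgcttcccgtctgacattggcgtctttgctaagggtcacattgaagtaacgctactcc
Sdhd (minus strand, chr9:50603800-50604099, NRF1 and ETS): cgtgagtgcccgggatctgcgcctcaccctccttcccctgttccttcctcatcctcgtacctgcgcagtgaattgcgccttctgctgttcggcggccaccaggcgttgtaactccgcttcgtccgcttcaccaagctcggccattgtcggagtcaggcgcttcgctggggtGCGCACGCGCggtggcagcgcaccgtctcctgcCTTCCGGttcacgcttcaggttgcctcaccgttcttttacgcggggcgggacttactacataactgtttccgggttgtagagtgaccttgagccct
Ndufs6 (minus strand, chr13:73328433-73328732, NRF1 and YY1): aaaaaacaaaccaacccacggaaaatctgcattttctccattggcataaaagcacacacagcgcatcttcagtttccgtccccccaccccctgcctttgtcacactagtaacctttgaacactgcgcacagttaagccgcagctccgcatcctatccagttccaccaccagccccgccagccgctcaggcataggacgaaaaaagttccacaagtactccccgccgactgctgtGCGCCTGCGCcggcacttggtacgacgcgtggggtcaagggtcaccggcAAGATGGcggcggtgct
Ndufs6, an accessory subunit of complex I needed for its assembly, read 14.38, 14.37 and 14.26 in PV, 14.54, 14.61 and 14.21 in NPV, and 14.27, 14.59 and 14.23 in SC, with overlapping groups (PV minus NPV -0.12, SE 0.17).

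Genes that build, serve or surround the chain were listed beside it, and none of them passed the test in any of the 3 comparisons, with or without the block. The lists are not fully separate from the members. Ndufaf1 and Ndufaf2 are also among the assembly factors of complex I, and Cox7a2l among the other partners. Of the assembly factors of complex I, 11 of 13 were tested, with a median of -0.10 between PV and NPV, and of those of complexes II to V 26 of 30, with a median of -0.076 and 20 below 0. The mitochondrial ribosomal proteins, which make the subunits encoded in mitochondrial DNA, had a median of -0.043 over 71 tested genes with 48 below 0. The cytosolic ribosomal proteins had -0.0037 over 61 genes, the citric acid cycle enzymes -0.028 over 17, the regulators of mitochondrial gene expression -0.043 over 18, and other partners of the chain -0.055 over 15. The median of all genes was 0.0014.

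Transcripts of mitochondrial DNA were carried by 8 probes, a list added after the files were seen. Their median was -0.10 between PV and NPV and 0 were called. Most were close to the top of the scale (mt-Cytb, cytochrome b of complex III, read 15.88 to 16.03 with 16.03 the highest level of any probe). One of the 8, named mt-Atp6 in the file, is matched by the gene table to a nuclear copy, so its origin is uncertain. The probe of mt-Nd5, a complex I subunit, read 7.82, 7.06 and 5.89 in PV, 7.82, 8.05 and 5.77 in NPV, and 8.94, 8.58 and 6.42 in SC. PV was below SC in all 3 pairs (PV minus SC -1.06, SE 0.83, limma adjusted p = 0.9999, and 0.38 with the block). mt-Nd6, the complex I subunit encoded on the DNA strand opposite to the others, was higher in PV than in SC in all 3 pairs (8.96, 8.68 and 9.30 in PV, with pair differences of 0.96, 0.50 and 0.52), by 0.66 (SE 0.29, limma adjusted p = 0.9999, and 0.508 with the block).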

How the data were processed

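The scanner table as deposited held, per the file headers, 2 columns per array: the intensity of every probe, not yet normalized between arrays, and the p-value of its detection. The submitters' processing notes name BeadStudio 3. A further deposited table of processed intensity values, made in a way those sources do not describe, served as an alternative. neqc of limma 3.58.1 (R 4.3.3; offset 16, controls inferred from the detection p-values) corrected the background, normalized by quantiles and took log2. The filter asked for detection (p under 0.05) on 3 or more of the 9 arrays and kept 19425 probes, 107 of the 122 taken by the rule. The brightest probe over all arrays stood for its gene (13532 genes). Names came from the RefSeq gene table of GRCm38.p6, where 111 of the 122 probes matched by accession, 9 by symbol and 2 by synonym.

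A single limma model of 3 group means (6 residual degrees of freedom, median residual SD 0.295) gave each comparison. Its tests were 2-sided and adjusted by Benjamini-Hochberg over all genes with a threshold of 0.05. The model was also run on simulated arrays with independent noise. That run does not cover the variation shared by arrays of one number. An exact permutation test of 3 against 3 arrays cannot go below 0.1 and was not used. A further fit took the label number as a block. The numbers pair the samples by the data and not by the labels: deviations from the group means correlated at 0.581 to 0.885 in all 9 pairs of arrays with the same number.

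The members, gene lists and alternatives were chosen with earlier results of these data known, and the list of mitochondrially encoded transcripts after the files were seen. Named by rule were Glul, the 2 members of each complex with the smallest p per comparison, tissue forms, complex II and members whose probes differ in sign. Other members were named after their values were seen, for groups that did not overlap, a wide gap between groups or label numbers, a core role or a printed promoter. Alternatives were the block, arrays left out, median scaling, no background correction, an offset of 50, other detection filters, each probe or the mean of probes, only the groups compared, and the deposited processed table. The beadchip as a block was not run, since the file headers name none. The values of 1 member are not reported here.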

Additional observations from a re-analysis of the deposited data

Results flagged for a closer look

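The heart and skeletal muscle form Cox6a2 did not pass the detection filter and entered no comparison, but carried a signal on 1 array above all SC arrays. On PV array 2 its level was 6.58 with a detection p of 0, against 4.63 at most on the other 8 arrays. Cox8b, another form of muscle, was at 5.13 on the same array (detection p 0.0427), against 4.92 at most elsewhere. The striated muscle transcripts Acta1, Tnnt3 and Ckm were detected on PV array 2 alone, at 9.74, 7.04 and 5.90, while Actc1, Myh1, Tnni3 and Myh6 were not detected there; 1 of the 2 Myh6 probes was detected on 1 other array. The part of muscle tissue in these values was not tested.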

How the results depend on the processing

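Under all 31 alternatives limma called 0 of the members in each of the 3 comparisons, while the count over all genes ran from 0 to 94 between PV and NPV, from 0 to 31 between PV and SC and from 0 to 1 between NPV and SC. The replicate block, which raised the calls over all genes to 43, 11 and 0, changed no call of a member. Median scaling took the median over all probes, most of them undetected. In place of quantile normalization, it moved the members' median to 0.2149 between PV and NPV, 0.089 between PV and SC and -0.1017 between NPV and SC, as it moved that of all genes to 0.2962, 0.1512 and -0.1442. It turned the sign between PV and NPV of Ndufa10 (0.0521), Sdhb (0.1484), Sdhd (0.249), Cox6b1 (0.0445), Atp5h (0.1545), Atp5d (0.2186) and Cycs (0.2023), between PV and SC of Sdhd (0.0134), Sdhb (0.1598) and Cycs (0.0689), and between NPV and SC of Sdhc (-0.0415) and Cycs (-0.1334). With the mean of a gene's probes Sdhb turned to 0.011 between PV and SC. Without the 3 arrays numbered 3, with or without the block, Sdhb was 0.0361 between PV and SC and Cycs -0.0509 between NPV and SC.

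With 1 array left out at a time, the members' median ran from -0.0975 to -0.048 between PV and NPV, from -0.0648 to -0.0353 between PV and SC and from -0.0029 to 0.058 between NPV and SC. It kept its sign between PV and NPV and between PV and SC, and between NPV and SC it turned without NPV array 2 (-0.0029) and without SC array 3 (-0.0007). Between PV and SC, Sdhb ran from -0.15 to 0.1435, Uqcrq, detected on 1 array of each group, from -0.2109 to 0.026 and Cycs from -0.2562 to 0.042. Between NPV and SC, Sdhc ran from -0.0431 to 0.196, Cox6a1 from -0.0125 to 0.3099 and Cycs from -0.1297 to 0.1686. The block with 1 array left out, added after the data were seen, moved the members' median between PV and SC to -0.0813 without SC array 2. It turned Uqcrq, whose sign so close to background has no meaning (0.0738 without PV array 1, 0.0676 without SC array 1) and Sdhb (0.0076 without PV array 3, 0.0332 without SC array 3) between PV and SC. Between NPV and SC it turned Sdhc (-0.0131 without NPV array 2, -0.0509 without SC array 2), Ndufc1 (-0.0396 without SC array 2) and Cycs (-0.0741 without SC array 3). The cause of these turns was not tested.

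Cox7a1 stayed below 0 between PV and NPV under all 31 alternatives, from -0.6854 to -0.1856, with adjusted p from 0.2476 to 1. Many of these could not turn its sign. Every PV array lay below every NPV array, so leaving arrays out of the fit without the block keeps the sign. Its gene has no further probe, so the choices between probes repeated the same difference. Probes near background on all or most arrays (Sdha, Ndufb11, Uqcrfs1, Uqcrq, and Cox6b2, detected on 4 arrays) limit what can be said of those transcripts.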
